A study of Mus musculus with 3 samples.

Results

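Cyclins, cyclin-dependent kinases, the proteins that license and fire replication origins, and the E2f factors drive the cell division cycle. The genes described here are the 74 protein-coding mouse genes whose symbol is that of a cyclin A, B, D or E (11 genes), a numbered Cdk (18), a numbered Cdc (22), a numbered Mcm (9), Orc1 to Orc6 (6) or E2f1 to E2f8 (8). They were taken by symbol from 21887 protein-coding genes placed on chromosomes 1 to 19, X and Y. The pattern also takes in Ccnb1ip1, which is named after cyclin B1 but encodes a ubiquitin ligase of meiotic recombination. The data are CUT&Tag peaks, from an assay in which an antibody brings the Tn5 transposase to a protein on chromatin so that the DNA beside it is cut and labelled. Cells were taken from the LGE (lateral ganglionic eminence), the ventral forebrain zone whose progenitors make striatal projection neurons, from wild-type CD1 mouse embryos at embryonic day 14.5. One group of 2 libraries used a mouse polyclonal antibody to MEIS2, a homeodomain factor of the TALE class, and the other group was 1 library made with no primary antibody. All 3 libraries came from the same tissue, strain and age, with 100000 cells each, and the labels give no treatment, transgene or mutant allele. They do not say whether the 2 MEIS2 libraries came from separate litters, so the spread between them may be technical.

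D-type cyclins with Cdk4 or Cdk6 start the phosphorylation of the Rb proteins, which releases E2f factors to switch on genes of DNA synthesis. Cyclin E and cyclin A with Cdk2 carry the cell into and through S phase, and cyclin A and cyclin B with Cdk1 carry it into mitosis. Before S phase the origin recognition complex, Cdc6 and Cdt1 load rings of Mcm2 to Mcm7 onto origins, which Cdc7 and Cdc45 help to turn into active helicases. In the embryonic LGE these genes are used by dividing cells of the ventricular and subventricular zones, while MEIS2 is present in both progenitors and young neurons. The peaks come from whole tissue, so a weak site in most cells and a strong site in few cells cannot be told apart.

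Reproducible peaks here are those of replicate 1 that share 1 bp or more with any replicate 2 peak and none with a no-antibody peak. There were 47809 of them, from 78060 and 82093 peaks called in the MEIS2 libraries and 9869 in the no-antibody library, with 6337375 to 7618406 tags used per library. A gene-end peak has its summit within 1 kb of either end of the gene as RefSeq places it, and a distal peak has its summit more than 1 kb from every gene end, inside the gene or within 50 kb of it. Fold enrichment is the peak caller's ratio of the tag pileup at the summit to the pileup expected locally in the same library, and the lower of the 2 MEIS2 values is used for ranking. Where 2 fold enrichments are given, the first is replicate 1 and the second is replicate 2. Peaks do not measure expression, so these data cannot check the tissue label. For reference, 52.4% of all protein-coding genes had a gene-end peak. Among marker genes, 9 of 13 LGE genes had a gene-end peak, with Dlx1, Meis2, Six3 and Zfp503 without, as did 2 of 4 medial ganglionic eminence genes, 2 of 4 dorsal cortex genes and 2 of 4 vessel and microglia genes. No gene of these 4 lists had a no-antibody peak at an end. The counts that follow are descriptions, because 2 MEIS2 libraries and 1 control library allow no test of a gene across samples.

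Promoter sequences of 7 members are printed as examples. RefSeq promoters (build GRCm38.p6, the assembly mm10 names), from 250 bases before to 50 bases after a start site, were at hand for 62 of the 74 members. Those without an entry were Ccna2, Ccnd1, Ccnd2, Ccne2, Cdc23, Cdc25c, Cdk5, Cdk17, Cdk19, E2f4, E2f5 and Mcm4. Each sequence printed is the 250 bases before the start site, 5′ to 3′ along the gene. The first 4 come from the S phase and licensing side, and capitals mark matches to the E2F letters TTTNNCGC on either strand and, in Orc3, also the MEIS letters TGACAG. They lie at chr1:128359706-128359955 (- strand) for Mcm6, chr10:128705052-128705301 (- strand) for Cdk2, chr10:110745189-110745438 (+ strand) for E2f7 and chr4:34614943-34615192 (- strand) for Orc3.
Mcm6: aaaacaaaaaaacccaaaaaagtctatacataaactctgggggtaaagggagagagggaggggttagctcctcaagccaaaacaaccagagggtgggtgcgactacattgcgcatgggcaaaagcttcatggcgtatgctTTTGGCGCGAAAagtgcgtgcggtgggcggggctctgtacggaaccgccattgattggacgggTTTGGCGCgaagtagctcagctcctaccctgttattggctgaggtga
Cdk2: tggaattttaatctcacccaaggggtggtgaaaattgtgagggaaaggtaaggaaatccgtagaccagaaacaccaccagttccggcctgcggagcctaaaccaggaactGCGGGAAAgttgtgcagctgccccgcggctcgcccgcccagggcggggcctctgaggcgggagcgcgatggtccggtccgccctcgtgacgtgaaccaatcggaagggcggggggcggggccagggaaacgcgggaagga
E2f7: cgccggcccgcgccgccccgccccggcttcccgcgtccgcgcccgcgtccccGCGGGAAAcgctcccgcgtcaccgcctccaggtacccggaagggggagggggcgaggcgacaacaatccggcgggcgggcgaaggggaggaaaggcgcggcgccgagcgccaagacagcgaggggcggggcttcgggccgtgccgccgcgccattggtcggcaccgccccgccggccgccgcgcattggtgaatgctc
Orc3: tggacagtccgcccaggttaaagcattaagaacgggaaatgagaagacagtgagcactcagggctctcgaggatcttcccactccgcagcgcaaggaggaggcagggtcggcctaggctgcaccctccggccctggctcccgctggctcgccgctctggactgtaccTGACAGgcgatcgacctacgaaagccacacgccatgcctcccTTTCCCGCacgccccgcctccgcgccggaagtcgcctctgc
The Mcm6 window held 3 E2F matches, with first bases 110, 106 and 47 bases before the start site, and the first 2 overlap on opposite strands. Cdk2 held 1, at 140 bases, and E2f7 held 1, at 198 bases. Orc3 held the MEIS letters at 83 bases and an E2F match at 41 bases. The reproducible peak of each gene covered 117, 150, 250 and 165 of the 250 bases shown, and every one of these matches lay inside it. These promoters do not stand for the members, since the E2F letters were in only 15 of 62 and the MEIS letters in 4. Among the 15 with E2F letters, the promoter windows of Cdc25a and E2f2 met no reproducible peak, and the others did.

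The next 3 come from the mitotic side, and capitals mark the CCAAT box (ATTGG on the opposite strand) and TTTGAA, the letters of the cell cycle genes homology region (CHR). They lie at chr10:69352913-69353162 (- strand) for Cdk1, chr9:70421555-70421804 (- strand) for Ccnb2 and chr13:100786487-100786736 (- strand) for Ccnb1.
Cdk1: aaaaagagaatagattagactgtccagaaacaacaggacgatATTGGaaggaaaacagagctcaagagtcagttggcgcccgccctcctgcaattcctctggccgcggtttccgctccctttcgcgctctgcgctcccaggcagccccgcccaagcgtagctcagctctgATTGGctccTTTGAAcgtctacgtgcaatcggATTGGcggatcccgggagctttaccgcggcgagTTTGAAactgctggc
Ccnb2: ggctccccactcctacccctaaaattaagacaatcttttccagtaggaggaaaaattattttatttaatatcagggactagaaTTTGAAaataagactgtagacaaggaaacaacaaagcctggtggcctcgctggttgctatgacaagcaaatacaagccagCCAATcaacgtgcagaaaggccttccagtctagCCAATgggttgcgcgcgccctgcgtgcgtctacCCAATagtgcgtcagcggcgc
Ccnb1: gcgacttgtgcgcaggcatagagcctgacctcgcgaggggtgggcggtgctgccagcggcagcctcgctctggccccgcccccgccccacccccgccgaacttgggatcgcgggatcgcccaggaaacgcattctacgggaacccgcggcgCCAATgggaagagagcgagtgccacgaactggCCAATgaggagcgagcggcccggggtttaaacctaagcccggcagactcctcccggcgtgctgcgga
Cdk1 held 3 CCAAT boxes and 2 CHR matches, and its peak covered the last 91 bases, with 2 of the CCAAT boxes and both CHR matches inside. Ccnb2 held 3 CCAAT boxes and 1 CHR match, and its peak covered the last 65 bases with 2 of the CCAAT boxes. Ccnb1 held 2 CCAAT boxes and no CHR match in these 250 bases, and no reproducible peak reached its window. A match of letters is not a measured binding site.

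Most members carried a MEIS2 peak at an end, with fold enrichments like those of other genes. Of the 74, 55 (74.3%) had a reproducible gene-end peak, against 52.4% of all protein-coding genes. In replicate 1 alone 59 of 74 (79.7%) had one, against 60.5% of all genes, and in replicate 2 alone 55 of 74 (74.3%), against 55.4%. None had a no-antibody peak at an end, where 0.270% of all genes did. By family the counts were 8 of 8 E2f genes, 16 of 18 Cdk, 18 of 22 Cdc, 7 of 9 Mcm, 4 of 6 Orc and 2 of 11 cyclin-named genes. The strongest gene-end peak of each member had a lower fold enrichment of 3.91 to 10.7, with a median of 6.40, and the median over the 11461 protein-coding genes with such a peak was 6.38. Of the 55, 28 lay above that median. Replicate 1 gave a median fold enrichment of 7.42 and a median pileup of 18 tags, and replicate 2 gave 6.42 and 12. Replicate 1 was the higher for 38 of the 55, and over all genes with a gene-end peak the medians were 7.72 and 6.49. The peaks had a median width of 722 bp, against 613 bp over all genes. Only Cdc20 and Cdc34 had 2 gene-end peaks.

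**Figure D1:**
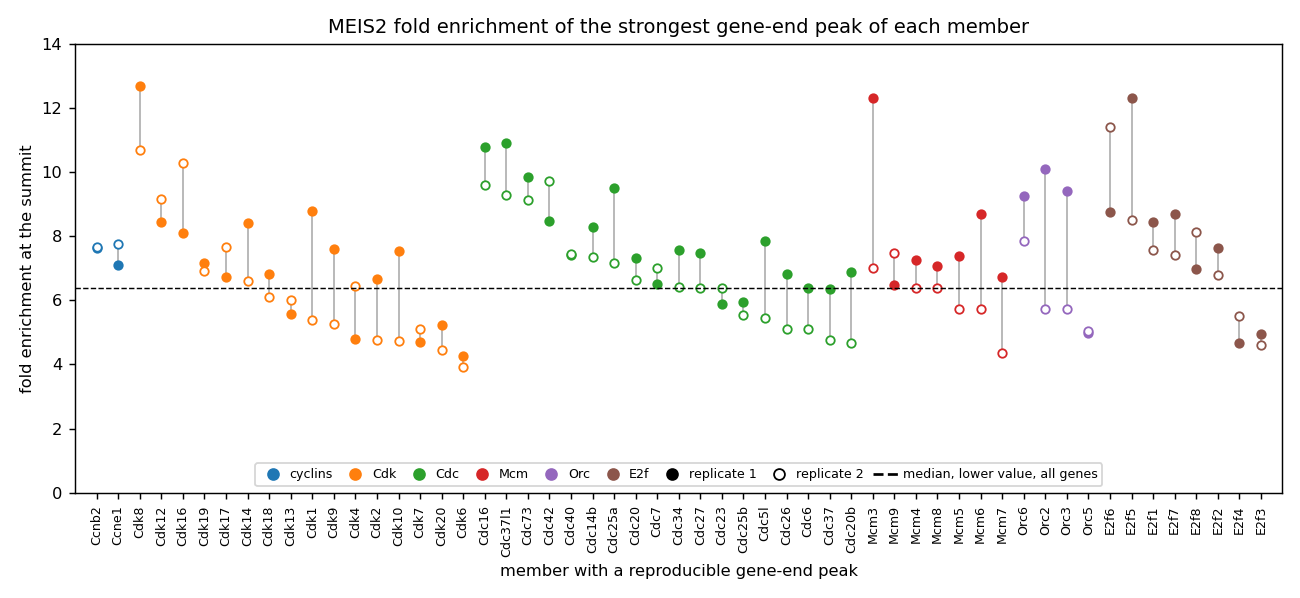
Fold enrichment (y axis, ratio) of the strongest gene-end peak of each of the 55 members with one (x axis), grouped by family and ordered by the lower value. Filled points are MEIS2 replicate 1, open points replicate 2, and the dashed line is the median lower value over all protein-coding genes, 6.38. Cdk8 stands highest by its lower value and Cdk6 lowest.

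Cyclin-named genes had the lowest share of the 6 families, and several had their nearest peak just outside the rule. Ccnb2, a B-type cyclin of mitosis, had a gene-end peak at chr9:70421173-70421619 with fold enrichments of 7.64 and 7.65 and its summit 132 bp from the 5′ end. Ccne1, the cyclin E of S phase entry, had one at chr7:38106784-38108051, 1268 bp wide, with 7.09 and 7.77. The other 9 cyclin-named genes had none, while 53 of the 63 members outside that family (84.1%) did. Of those 9, Ccnb1 had a peak in replicate 1 alone, at chr13:100786271-100786722, with a fold enrichment of 8.37 and its summit 115 bp from the end. Part of the gap lay in the rule. A peak inside Ccna2, the cyclin A of S phase and mitosis, had its summit 1195 bp from the nearer end (chr3:36571465-36572289, 9.45 and 7.65). A 1388 bp peak spanned the lower-coordinate end of Ccne2, with its summit 1145 bp inside (chr4:11190411-11191798, 8.30 and 7.31). Ccna1, the cyclin A of male germ cells, had a peak with its summit 498 bp from its annotated start site, which lies inside the gene's RefSeq span (chr3:55054983-55055755, 7.58 and 8.43). Ccnd3 had one with its summit 236 bp from its second annotated start site, 88.7 kb into the gene (chr17:47593356-47593860, 6.36 and 5.36). With ends taken as 2.5 kb, 6 of 11 cyclin-named genes had a peak (background 60.7%) against 54 of 63 other members. With annotated start sites counted beside the ends, 4 of 11 did (background 57.1%) against 56 of 63. Ccna2, Ccnd1, Ccnd2 and Ccne2 have no start site entry and could not gain by this rule. Of the 7 with an entry, 4 (57.1%) had a peak within 1 kb of a start site, against 54.3% of all such genes. Counting any part of the peak in place of its summit, a choice made after seeing the data like the start site rule, also gave 4 of 11 (background 54.8%), against 54 of 63.

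**Figure D2:**
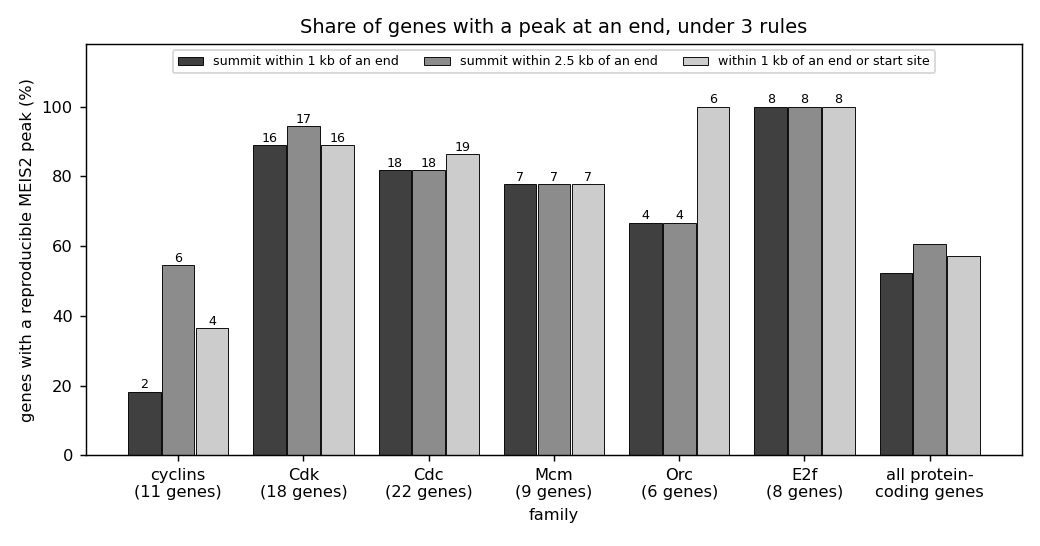
Share of genes (y axis, %) with a reproducible MEIS2 peak in each family and over all protein-coding genes (x axis), by 3 rules: summit within 1 kb of an end, within 2.5 kb, or within 1 kb of an end or annotated start site. Numbers over the bars count genes. Cyclin-named genes rise from 2 to 6 and 4 of 11, and Orc genes reach 6 of 6 once start sites count.

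At 2.5 kb and counting any part of the peak, Ccnd1, Ccnd2, Ccnd3, Ccnb3 and Ccnb1ip1 had no gene-end peak. With start sites added Ccnd3 had one and Ccnb3 and Ccnb1ip1 had none, while Ccnd1 and Ccnd2 have no start site entry. Ccnd1 and Ccnd2 are the D-type cyclins that couple growth signals to Cdk4 and Cdk6, and both are known from neural progenitors. The nearest reproducible peak to Ccnd1 lay 14.7 kb away at chr7:144914890-144915548 (5.76 and 5.72), within 1 kb of an end of LTO1 and Bc1. Its distal peaks were chr7:144965182-144965353 (5.33 and 4.76) and chr7:144978790-144979131 (7.26 and 6.02), the second 39.2 kb from the gene. Ccnd2 had 4 distal peaks, the strongest at chr6:127180652-127180902, 28.6 kb away, with 9.90 and 11.1 and pileups of 29 and 26 tags. A peak 15.5 kb from Ccnd2 sat at an end of Tigar (8.82 and 6.38). Ccnd3 had 6 peaks that count as distal, 1 of them the peak at its inner start site, and 4.7 kb inside it lay the strongest of them, chr17:47509582-47510018 (11.1 and 9.74). The 3 D-type cyclins together had 12 distal peaks, a mean of 2.68 ± 0.749 per 100 kb (SD over 3 genes), against 1.67 over all protein-coding genes. Without the peak at the inner start site, a count added after seeing the data, they had 11, a mean of 2.51 ± 0.666. Ccnb3, a cyclin of meiosis, had 3 weak distal peaks with lower values of 4.46 to 4.90. Every cyclin-named gene had at least 1 distal peak.

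**Figure D3:**
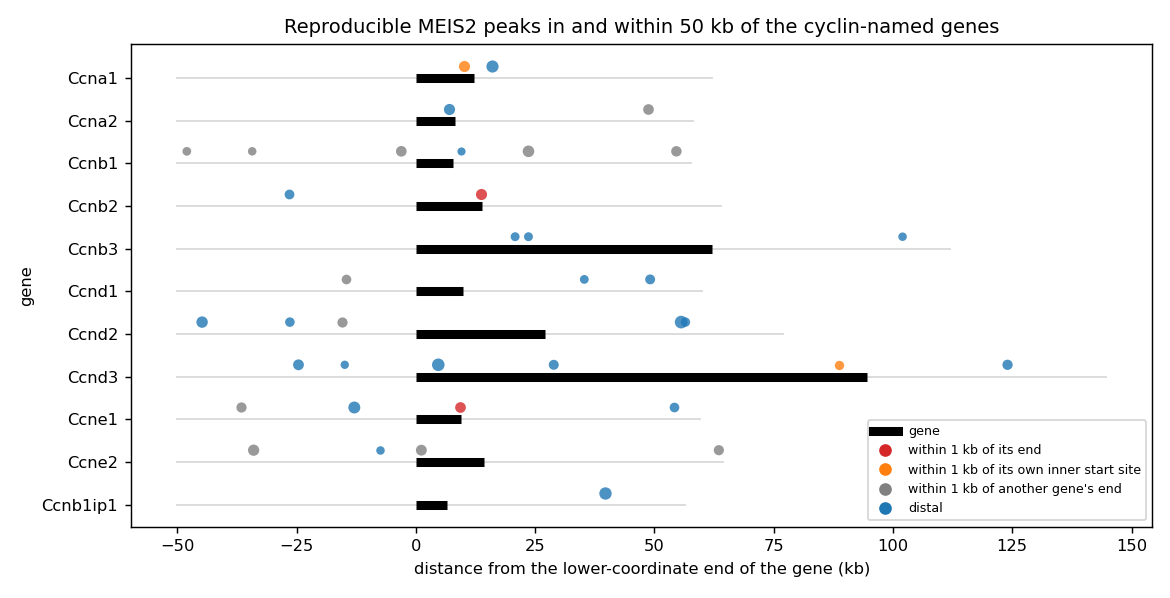
Reproducible MEIS2 peaks (points, area proportional to the lower fold enrichment) in and within 50 kb of the 11 cyclin-named genes (black bars), by distance from each gene's lower-coordinate end (x axis, kb). Red points lie within 1 kb of the gene's end (Ccnb2 and Ccne1), orange within 1 kb of its own inner start site (Ccna1 and Ccnd3), grey at another gene's end and blue at none. The orange Ccna1 peak also lies at an end of the gene 4931419H13Rik. The Ccne2 point at 1.15 kb is grey because its summit lies by an end of a neighbouring noncoding gene.

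The kinases that bind these cyclins did carry gene-end peaks. All 4 cell cycle kinases had one. They were Cdk1 at chr10:69352267-69353003 (8.80 and 5.38), Cdk2 at chr10:128704446-128705201 (6.66 and 4.76), Cdk4 at chr10:127063335-127063915 (4.78 and 6.44) and Cdk6 at chr5:3341249-3341662 (4.26 and 3.91). Their median lower value of 4.77 was below that of any other kinase group with 4 or more members. Cdk2 and Cdk6 lost theirs with a −log10 q of at least 5 and Cdk1 and Cdk6 at 500 bp, which left 2 of 4 in each case, and Cdk1 lost its peak with 50% reciprocal overlap. Over all genes the share was 40.4%, 43.2% and 45.4% under these settings in turn, and 52.4% by the main rule. The Cdk6 peak was the weakest of all members, and its annotated start site lies 2349 bp from that summit, with a second peak (3.41 and 4.59) just before it. All 7 transcription-linked kinases had gene-end peaks as well, where 52.4% of all genes did. At 500 bp 4 of 7 kept theirs (background 43.2%), and Cdk8, Cdk12 and Cdk13 did not. With 50% reciprocal overlap 5 of 7 did (background 45.4%), without Cdk8 and Cdk10. With a −log10 q of at least 5 it was also 5 of 7 (background 40.4%), without Cdk7 and Cdk10. Cdk8, a kinase of the Mediator complex, had the highest lower value of all 55 members (chr5:146231021-146231801, 12.7 and 10.7, pileups of 29 and 20 tags), but its 2 peaks did not reach 50% reciprocal overlap and its summit lay 735 bp from the end. Cdk12, which phosphorylates RNA polymerase II, followed with 8.44 and 9.17, and Cdk7, of the Cdk-activating kinase, was lowest with 4.70 and 5.10 and 7 tags in each replicate. In the group of Cdk5 and Cdk14 to Cdk18, Cdk16 (8.10 and 10.3), Cdk17 (6.73 and 7.68), Cdk14 (8.42 and 6.61) and Cdk18 (6.83 and 6.09) had peaks. Cdk5, the kinase of postmitotic neurons, had none within 1 kb, but peaks with summits 1143 bp inside it (5.98 and 7.22) and 1575 bp outside it (4.12 and 3.80). Cdk15 had neither. Cdk20, linked to cilia, had a peak of 5.24 and 4.46.

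Origin licensing genes had a peak at an end or start site in most cases, with Mcm2 and Mcm10 as exceptions among the Mcm genes. Of the helicase subunits Mcm2 to Mcm7, 5 of 6 had a gene-end peak, where 52.4% of all genes did. Mcm3 had the widest gap between replicates, 12.3 against 7.01 (chr1:20819871-20820337). Mcm4 gave 7.26 and 6.40, Mcm5 7.39 and 5.74, Mcm6 8.71 and 5.74 and Mcm7 6.73 and 4.35. In all 5, replicate 1 was the higher, as its median was over all genes (7.72 against 6.49). With 50% reciprocal overlap Mcm6, Mcm7 and Mcm8 lost their peaks, and the share of the 9 Mcm genes fell from 77.8% to 44.4%, where 45.4% of all genes had one. Mcm2 had no peak near its ends in either library, and the nearest reproducible one lay 3.71 kb away, at an end of Tpra1 (6.19 and 3.92). Outside the ring, Mcm8 (7.06 and 6.38) and Mcm9 (6.49 and 7.47), which act in recombination, had peaks. The nearest to Mcm10, which joins the active helicase, lay 7.91 kb away. Among origin recognition genes, Orc2 (10.1 and 5.74), Orc3 (9.41 and 5.74), Orc6 (9.26 and 7.86) and Orc5 (4.98 and 5.05) had gene-end peaks. Orc1 and Orc4 had theirs at an inner start site: the Orc1 summit lay 155 bp from its start site (chr4:108579440-108579770, 7.06 and 4.46) and the Orc4 summit 53 bp from one of its 3 start sites (chr2:48948967-48949407, 10.5 and 8.02). With start sites counted beside the ends, a rule added after seeing the data, all 6 Orc genes therefore had one (background 57.1%). Both peaks also lay within 1 kb of an end of another gene, Prpf38a and Mbd5. Of the loading and firing factors, Cdc6 (chr11:98907618-98908119, 6.39 and 5.10) and the kinase Cdc7 (6.51 and 7.01) had peaks, while Cdc45 had one in replicate 1 alone (8.82, 14 tags).

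All 8 E2f genes, activators and repressors, had gene-end peaks, where 52.4% of all genes did. With 50% reciprocal overlap E2f3 and E2f6 lost theirs (background 45.4%), and at 500 bp E2f3 and E2f8 did (background 43.2%). The activators gave 8.45 and 7.56 for E2f1 (chr2:154569298-154570147), 7.64 and 6.78 for E2f2 and 4.95 and 4.62 for E2f3. E2f3 had a further peak at its second start site, with 5.15 and 6.38. The repressors gave 8.75 and 11.4 for E2f6, 12.3 and 8.52 for E2f5, 8.68 and 7.42 for E2f7, 6.97 and 8.14 for E2f8 and 4.67 and 5.51 for E2f4. The family's median lower value was 7.20, the highest of the families with more than 2 peaks, against 6.47 for Cdc, 6.38 for Mcm, 5.74 for Orc and 5.47 for Cdk.

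The numbered Cdc genes are a mixed set, since the name records yeast division mutants. All 5 genes of the anaphase-promoting complex and its activator, the ubiquitin ligase that ends mitosis, had peaks, where 52.4% of all genes did. With a −log10 q of at least 5 Cdc26 lost its peak (background 40.4%). Cdc16 had 10.8 and 9.61. The activator gene Cdc20 had 7.31 and 6.63 outside the gene (chr4:118437649-118437937) and 7.26 and 5.38 inside it. Cdc27 had 7.47 and 6.38, Cdc23 5.88 and 6.38 and Cdc26 6.83 and 5.10. Of the Cdc25 phosphatases, which activate Cdk complexes, Cdc25a (9.50 and 7.18) and Cdc25b (5.94 and 5.53) had peaks and Cdc25c had one in replicate 1 alone (5.29, 938 bp from the end). Cdc14b had one (8.30 and 7.36), and Cdc14a had a 1470 bp peak at an inner start site (6.86 and 4.99). Among the rest were the strong peaks of Cdc37l1 (10.9 and 9.28), Cdc73 of the transcription elongation complex PAF1 (9.84 and 9.13) and Cdc42 (8.47 and 9.72). Cdc34, Cdc37, Cdc40, Cdc5l and Cdc20b followed, with lower values of 4.67 to 7.42. Cdc123 had a peak in replicate 1 alone (5.88, 9 tags).

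In all, 19 of the 74 had no reproducible gene-end peak. Of these 15 had none in either library, and Ccnb1, Cdc45, Cdc25c and Cdc123 had one in replicate 1 that replicate 2 lacked. Their replicate 1 fold enrichments of 5.29 to 8.82 lay within the range of members whose peak repeated. No member had a gene-end peak in replicate 2 alone. At 500 bp, the share with a gene-end peak was 58.1% of members and 43.2% of all genes. For the 62 members with a RefSeq promoter, 54 (87.1%) had a summit within 1 kb of a start site, against 54.3% of the 17492 genes with one.

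Members' peaks sat at the 5′ end. Strand was known for 51 of their 57 gene-end peaks, and 50 lay nearer the 5′ end, with the second Cdc34 peak the exception; over all protein-coding genes 89.4% of 10050 such peaks did. The summit lay a median of 203 bp from the end, and 45 of 57 lay inside the gene. A reproducible peak overlapped the promoter window of 52 of 62 members (83.9%), against 48.5% of all genes, and of 47 of the 49 members with both a promoter entry and a gene-end peak, against 82.9%. In 8 of the 55 (14.5%) the peak was also within 1 kb of an end of another protein-coding gene, against 23.5% over all genes. These pairs were Cdc26 with Prpf4, Cdc40 with Wasf1, E2f4 with Exoc3l, Mcm4 with Prkdc, Mcm7 with Ap4m1, Mcm8 with Trmt6, Orc3 with Rars2 and Orc6 with Vps35. Such a peak belongs to both genes alike.

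The members' promoters were rich in CpG, and gene-end peaks followed CpG content over all genes. The ratio of observed to expected CpG in the promoter had a median of 0.866 in members and 0.576 in all genes. When all promoters were ranked by that ratio and split into 4 equal bins, the share of all genes with a gene-end peak was 11.7% in the lowest bin, 37.6% in the second, 75.1% in the third and 84.5% in the highest. The members had 0 of 1, 2 of 5, 12 of 16 and 35 of 40 (87.5%). Within a bin the members' share was thus near that of other genes, and 40 of the 62 fell in the highest bin. All 7 cyclin-named genes with a promoter entry fell in the top 2 bins, where 2 of 7 had a gene-end peak. By the start site rule 4 of 7 had a peak, against 54.3% of all genes with an entry. The shares by bin use the gene-end rule and do not compare with that count. CpG content moved with the share of genes called, and its part in the members' share was not tested further.

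**Figure D4:**
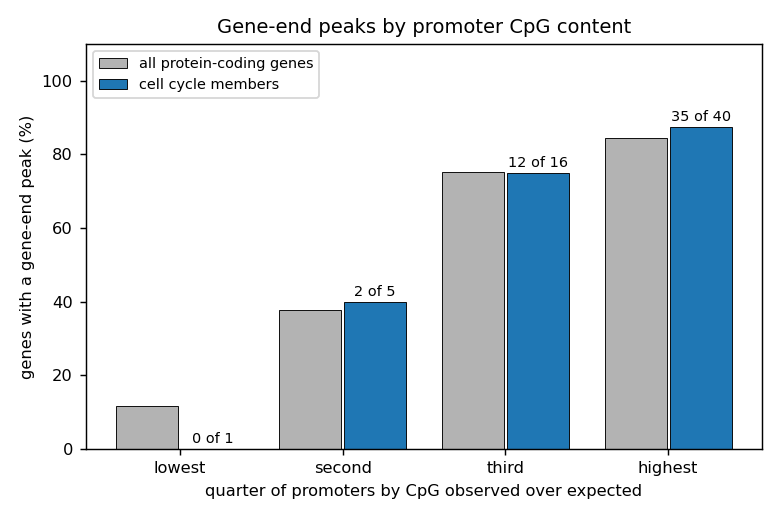
Share of genes with a reproducible gene-end MEIS2 peak (y axis, %) in 4 equal bins of promoters by observed over expected CpG (x axis). Grey bars are all protein-coding genes with a RefSeq promoter and blue bars the cell cycle members, with counts. The bars rise together from the lowest bin to 84.5% and 87.5% in the highest.

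Motif letters were counted on either strand in the first RefSeq promoter listed for each gene, over the whole window. The E2F letters TTTNNCGC were in 15 of 62 members (24.2%) and in 6.34% of all genes: Cdc25a, Cdc6, Cdk1, Cdk2, Cdk6, E2f2, E2f3, E2f7, Mcm3, Mcm5, Mcm6, Mcm7, Mcm8, Orc1 and Orc3. The CCAAT box was in 32 (51.6%) against 39.0%, the Sp letters GGGCGG in 44 (71.0%) against 46.3%, and the CHR letters TTTGAA in 12 (19.4%) against 16.5%. The MEIS letters TGACAG were in 4 (6.45%), namely Cdc25a, Cdc40, Cdk8 and Orc3, against 18.8% of all genes. Promoters other than the first listed also held them in Ccnd3 (at its second start site), Cdc7 and Orc4, and were not counted. The PBX-MEIS motif, TGAT directly before TGACAG, was in none, against 0.234%.

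Distal peaks around the members were about as dense as around other genes. At least 1 lay in or within 50 kb of 64 of 74 members (86.5%), against 80.8% of all genes. The mean was 1.56 per 100 kb of gene and flanks, against 1.67, and the median 1.15 against 1.31. The 157 distal peaks were all different, so no 2 members shared one, and they overlapped 154 replicate 2 peaks. Of the 157, 2 lay at an inner start site of their own gene (Ccnd3 and E2f3), and 32 (20.4%) lay inside the gene. Their median lower fold enrichment of 5.38 compared with 5.88 over the 34152 distal peaks of the genome. By family the mean per 100 kb was 1.99 ± 1.81 (SD over genes) for E2f, 1.64 ± 1.43 for Cdc, 1.56 ± 0.874 for cyclins, 1.48 ± 1.02 for Mcm, 1.48 ± 1.04 for Orc and 1.33 ± 1.28 for Cdk. The families' means differed by less than the spread among genes of any one family. E2f2 had the most distal peaks, 7, of which 5 lay on its 5′ side; the nearest was 6.62 kb out (7.19 and 5.25). A pair of them, chr4:136147738-136148162 (6.10) and chr4:136148335-136148576 (3.66) in replicate 1, overlapped the same replicate 2 peak (8.17), so the count of 7 rests on 6 replicate 2 peaks. Cdc37, a partner of Hsp90, and Ccnd3 had 6 each, and Cdc20, Cdk5, Mcm9 and Orc5 had 5 each. E2f1, Ccnd2, Cdk9, Cdk14, Cdc42 and Cdc20b had 4 each. In the 3 activator E2f genes the mean was 3.65 ± 1.99 per 100 kb (3.46 ± 2.27 without the peak at the E2f3 start site) and in the 5 repressors 0.999 ± 0.696, with E2f5 at 0.

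The 4 strongest distal peaks exceeded every gene-end peak of the members. One 37.3 kb from Cdc40 had fold enrichments of 20.5 and 21.9 (chr10:40794174-40794488). Next came one inside Cdk14 (chr5:4943462-4943943, 17.0 and 16.6), one inside Cdc20b (chr13:113056511-113057054, 16.2 and 16.6) and one 41.4 kb from Orc6 (chr8:85349436-85349850, 16.0 and 15.7). Cdk4 had one 43.0 kb away (11.5 and 12.5) and Cdk6 one inside the gene, 45.1 kb from its end (10.6 and 10.8). The other 2 distal peaks of Cdk6 lay 94.0 and 93.2 kb from the same end, with 4.84 and 5.51 and with 5.10 and 5.51, and both overlapped the same replicate 2 peak. Cdk1 had 2, with 11.4 and 9.08 at 14.1 kb and 8.01 and 5.78 at 46.0 kb. Mcm5 had 3, the nearest inside the gene (8.05 and 7.01), and Mcm2 had 3, with lower values of 3.80 to 5.74. Of the 10 members without a distal peak, 9 had a gene-end peak and the other was Orc4.

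**Figure D5:**
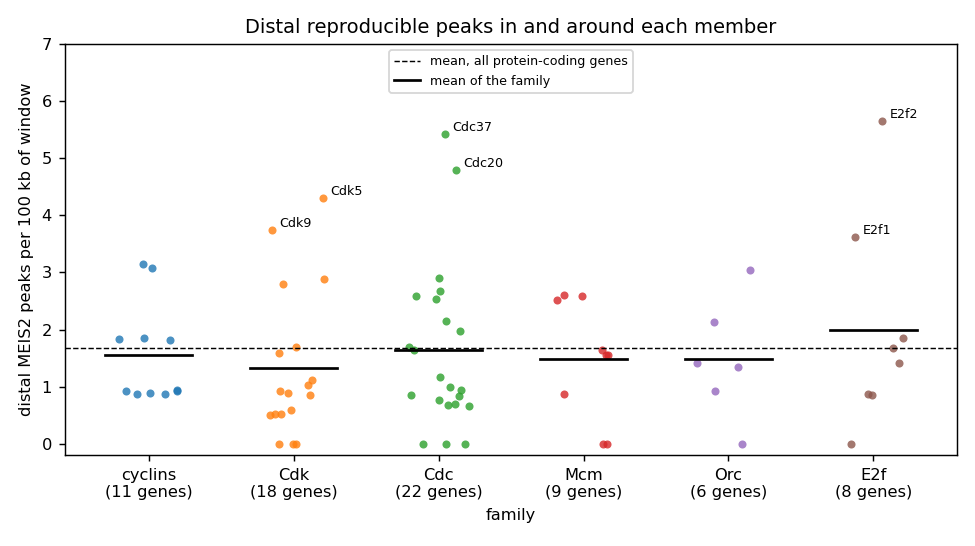
Distal reproducible MEIS2 peaks per 100 kb of window (y axis) for each member (points) by family (x axis). Solid bars are family means and the dashed line is the mean over all protein-coding genes, 1.67. E2f2, at 5.66, and Cdc37, at 5.43, stand highest, and 10 members are at 0.

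The no-antibody library had distal peaks in the windows of 22 of 74 members (29.7%), against 25.7% of all genes. There were 30 of these peaks, with fold enrichments of 3.02 to 17.9 in that library, and 11 overlapped a peak of both MEIS2 libraries while 7 overlapped neither. The strongest lay inside Cdk8, 30.3 kb from its nearer end (chr5:146260979-146261368, 17.9), where the MEIS2 libraries had 25.6 and 24.5, so that site is not among the reproducible peaks. A site inside Cdk6 (9.65, with 21.5 and 17.4 in the MEIS2 libraries) and 1 by Orc5 (6.81, with 16.0 and 16.8) were also called in all 3 libraries. Inside Mcm10, 2.85 kb from its end, a no-antibody peak of 9.72 coincided with a replicate 1 peak of 4.88. The other members with such a peak were Cdk15, Cdk18, Mcm8, Orc3, Cdc42, Cdk14, Ccnd2, Cdc16, Cdk10, Mcm9, Cdk17, E2f7, Cdk13, Ccnb1ip1, Mcm4, Cdc45, Cdc37l1 and Ccnb3, with 3.02 to 7.96.

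Other genes of the cell cycle, outside the symbol pattern, had gene-end peaks about as often as the non-cyclin members. Of 67 such genes 56 (83.6%) had a gene-end peak, against 52.4% of all genes. Their median lower fold enrichment was 6.65, against 6.38, they had a mean of 1.52 distal peaks per 100 kb, against 1.67, and none had a no-antibody peak at an end. Cdk inhibitors had 6 of 7, with Cdkn1a, the p21 gene, without; Cdkn1b, the p27 gene, had 6.53 and 6.71 and Cdkn1c, the p57 gene, 5.67 and 4.88. Rb family and DREAM complex genes had 10 of 12, among them Rb1 (8.59 and 6.78), Rbl1 (10.0 and 8.68) and Rbbp4 (10.5 and 10.6). Other loading and firing factors had 11 of 12, with Cdt1 at 4.99 and 5.07 and its inhibitor Gmnn at 7.54 and 5.29. Checkpoint and mitotic kinase genes had 8 of 11 and further anaphase-promoting complex genes 9 of 11. Cyclins of other letters, such as Ccnc, Ccnh, Ccnk and Ccnt1, which act with transcription-linked kinases, had 12 of 14, against 2 of 11 for the A, B, D and E names. Both counts use the 1 kb rule. At 2.5 kb the A, B, D and E names had 6 of 11 (background 60.7%), and the other letters were not recounted.

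Under the other peak rules the background over all genes was 45.4% with 50% reciprocal overlap, 40.4% with a −log10 q of at least 5, 55.3% without replicate 1 and 60.4% without replicate 2, where members had 60.8%, 60.8%, 74.3% and 79.7%.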

How the data were processed

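The samples were grouped by the antibody in the labels. MACS 2.2.7.1 called the peaks of each library alone, per the file headers, without a control file, at a q cutoff of 0.05, with at most 1 tag kept per position and without use of read pairs. Per the submitters' processing notes, the tools were Bowtie2 2.3.4, MACS2 2.1.4, Picard and Trimmomatic and the build was mm10, so the sources differ on the MACS version. The redundant rate in the headers was 0.90 to 0.92, and the few tags kept limit weak peaks. The deposited signal is the pileup at the summit, not adjusted for sequencing depth. Fold enrichment, as deposited, is a ratio within 1 library. Of the deposited −log10 p and −log10 q values, only q was used, as an alternative filter. Positions are 1-based.

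Genes came from a RefSeq table of GRCm38.p6, without exons, so parts of genes were not distinguished. Peaks on unplaced sequences (315, 323 and 69) were left out. A gene was given every summit within 1 kb of an end, and distal summits over its whole length and 50 kb on either side. Start sites and strand came from the RefSeq promoter table. Counting was done in Python 3.11.15 with pandas 2.3.3 and numpy 2.4.6 and tested on simulated peaks. The replicate 2 value of a peak is that of the overlapping peak with the longest overlap. No test was run. The members, gene lists and rules were chosen with earlier results of these data known. All members could be named, with full values for the strongest of each role, those with most distal peaks, those with a no-antibody peak nearby and a fixed set of 11. Alternatives were other overlap, q, distance and window settings and each MEIS2 library left out.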

Additional observations from a re-analysis of the deposited data

How the results depend on the processing

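The gene-end share of all members stayed within its 95% Wilson interval when either MEIS2 library was left out (74.3% to 79.7%), when no-antibody overlap was ignored, at 2.5 kb and under both rules added later. The interval served only as a yardstick. The same genes were recounted each time, so it does not measure the spread between settings. The members' share moved to 60.8% with 50% reciprocal overlap, 60.8% with −log10 q of at least 5 and 58.1% at 500 bp. Under these settings the background fell from 52.4% to 45.4%, 40.4% and 43.2%. With start sites alone counted, the share was 87.1% of the 62 members with a RefSeq promoter, of which 49 had a gene-end peak. There the background was 54.3%, close to its main value. With 50% reciprocal overlap the Cdk share was 66.7% and the Mcm share 44.4%. With −log10 q of at least 5 the Cdk share was 61.1%, the density of distal peaks 0.983 per 100 kb, and distal peaks numbered 11 for Mcm and 10 for E2f. At 500 bp the Cdk share was 55.6% and the distal density 1.95, and at 2.5 kb the cyclin share was 54.5%, the distal density 1.11 and Cdk distal peaks 22. With start sites alone counted, inner ones included, the cyclin share was 57.1% of the 7 genes with an entry and the Orc share 100%. The Orc share was also 100% with start sites added to the ends (background 57.1%). Windows of 20 kb gave 11 distal peaks for cyclins, 17 for Cdk, 21 for Cdc, 10 for Mcm, 7 for Orc and 8 for E2f, and windows of 100 kb gave 39, 73, 80, 30 and 31 for cyclins, Cdk, Cdc, Mcm and E2f. Leaving out 1 MEIS2 library removes the demand that a peak repeats. It gave 2.57 (without replicate 1) and 2.92 (without replicate 2) distal peaks per 100 kb, a median gene-end fold enrichment of 6.44 to 7.42, a Cdc share of 81.8% to 95.5%, and distal counts of 46 to 47 for cyclins, 68 to 70 for Cdk, 70 to 86 for Cdc, 28 to 29 for Mcm and 31 to 39 for E2f. The cause of these shifts was otherwise not tested. No paired analysis was possible because the no-antibody group has 1 library. With 6337375 to 7618406 tags used per library, peaks of few tags can be missed, so a member without a peak is one where none was detectable at this depth.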
